A study of Homo sapiens with 8 samples.

Results

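The integrins and laminins are the cell-surface receptors and the basement membrane proteins that hold cells to their matrix. Genes were taken by name: every integrin alpha chain, every integrin beta chain numbered with a single digit, and every laminin alpha, beta and gamma chain whose symbol the count table lists. This gave 38 of the 61209 gene names, with 26 integrins (18 alpha and 8 beta chains) and 12 laminins. The sequenced RNA came from the human embryonic stem cell line H1, an established line, with the Msx1-P2A-tdTomato genotype, in which a red fluorescent protein is made from the MSX1 locus. Cells of all groups were driven towards lateral plate mesoderm. The first medium, on day 0, held 50 ng/mL of Activin A, 40 ng/mL of BMP4, 10 ng/mL of FGF2 and, to block GSK3, 6 µM of CHIR99021. From day 1 the medium held 60 ng/mL of BMP4 and 1 µM of CHIR99021, and on day 4 cells were pelleted, 25000 to a well, in coated low-adhesion plates. Until day 8 the FGF8+10 pellets received 500 ng/mL of FGF8 and 500 ng/mL of FGF10. The Mock pellets are the control, but their medium is not stated in the labels. Msx1-positive cells were then sorted into Pdgfra-positive and Pdgfra-low cells, so that 4 groups of 2 libraries were compared: FGF8+10 Pdgfra-positive, FGF8+10 Pdgfra-low, Mock Pdgfra-positive and Mock Pdgfra-low. All groups come from 1 cell line, and the sort took place after the treatment, so a group is what the gate held on day 8 and not a population followed over time.

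Laminins are cross-shaped trimers of an alpha, a beta and a gamma chain. They polymerise into the basement membrane, where the alpha chain carries most of the binding to cells. Integrins are dimers of an alpha and a beta chain, and the alpha chain largely decides which ligand is bound: laminins, collagens, proteins with an RGD motif such as fibronectin and vitronectin, or counter-receptors on other cells. In the embryonic limb, mesenchyme lies under an ectoderm with a laminin-rich basement membrane, and FGF8 and FGF10 are the ligands exchanged between the ectodermal ridge and the mesenchyme.

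The promoter windows of 3 members are shown because these genes had the largest rise or falls among the members described below: ITGA8 rose most in Pdgfra-positive cells, LAMA2 fell most there, and ITGA6 fell most in Pdgfra-low cells, among members at 5 CPM or more in 1 group. ITGA4, which rose most in Pdgfra-low cells, is not shown because its RefSeq window runs into the gene as the count table has it. Each is the 250 bases before the transcription start in RefSeq (GRCh38.p14), read 5′ to 3′ on the gene's strand. Capitals mark matches, on either strand, to 6 motifs. These were GGGCGG for the GC box, TATAAA for the TATA box, CCAAT for the CCAAT box, CCGGAA for the ETS core, TGANTCA for the AP-1 site and CACGTG for the E-box.
ITGA8, chr10:15719923-15720172, minus strand: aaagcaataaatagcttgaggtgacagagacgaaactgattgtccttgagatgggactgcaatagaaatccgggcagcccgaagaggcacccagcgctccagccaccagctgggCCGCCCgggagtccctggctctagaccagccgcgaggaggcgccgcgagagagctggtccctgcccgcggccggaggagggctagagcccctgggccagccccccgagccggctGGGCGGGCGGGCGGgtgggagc
LAMA2, chr6:128882888-128883137, plus strand: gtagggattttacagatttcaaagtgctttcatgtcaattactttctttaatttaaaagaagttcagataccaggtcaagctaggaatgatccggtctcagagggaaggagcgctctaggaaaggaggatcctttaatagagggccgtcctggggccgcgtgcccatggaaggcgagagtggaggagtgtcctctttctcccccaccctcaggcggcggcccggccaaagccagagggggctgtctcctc
ITGA6, chr2:172427086-172427335, plus strand: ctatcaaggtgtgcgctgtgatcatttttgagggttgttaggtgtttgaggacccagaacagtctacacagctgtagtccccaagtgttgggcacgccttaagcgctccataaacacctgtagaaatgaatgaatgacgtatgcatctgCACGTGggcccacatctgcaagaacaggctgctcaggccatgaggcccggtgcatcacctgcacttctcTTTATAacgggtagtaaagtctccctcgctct
The ITGA8 window held 4 GC boxes, 3 of them overlapping next to the start, the ITGA6 window held 1 E-box and 1 TATA box read on the opposite strand, and the LAMA2 window held none of the 6. The GC content was 68.0% for ITGA8, 53.2% for LAMA2 and 50.8% for ITGA6, against a median of 58.0% over all windows. RefSeq windows were matched for 26 of the 38 members, giving 33 windows because some genes have several starts. The GC box was in 51.5% of these and in 42.6% of all 35116 windows, the CCAAT box in 15.2% and 32.0%, and the ETS core in 15.2% and 14.5%. The AP-1 site was in 6.06% and 6.57%, the TATA box in 6.06% and 10.7%, and the E-box in 3.03% and 6.34%. These are matches of letters and were not tested as binding sites.

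The libraries held 47698561 to 64390444 counts. Levels are given as CPM, a gene's counts as parts of the library's total scaled by TMM, a method that sets libraries to a common centre from the bulk of their genes. Because each mate counts on its own, 6 counts, or 3 pairs, was taken as the floor of detection, which is 0.0883 to 0.134 CPM in a library. PDGFRA, the gene of the sort marker, had mean levels of 714 and 286 CPM in FGF8+10 Pdgfra-positive and Pdgfra-low cells and of 454 and 192 CPM in the same gates under Mock. All 8 limb and lateral plate mesenchyme markers of a fixed list had at least 1 CPM in every group. The list holds MSX1 and PDGFRA, on which the cells were sorted, so the sort itself selected for these. Group means were 345 to 473 CPM for HAND2, but 2.74 to 3.71 CPM for TBX5 and 2.91 to 12.4 CPM for PRRX2. In the tests below, 5 were higher and 2 lower with FGF8+10 in Pdgfra-positive cells, beside 25.8% and 25.1% of all genes. In Pdgfra-low cells 2 were higher and 5 lower, beside 27.9% and 27.7%. Since these are bulk libraries, fewer cells of a type and less RNA per cell cannot be told apart.

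Of the 38 members, 34 had enough counts to be tested and 4 had not. ITGB6, the epithelial partner of alpha-v, had 0 counts in all 8 libraries, which with the floor of 6 counts allows up to 0.134 CPM in a library. The leukocyte chains ITGAM and ITGAD had 5 and 8 counts over all libraries, and the laminin beta chain LAMB4 had 32. Among the tested members, ITGAL (57 counts in all), ITGAX (53), ITGB3 (78) and ITGB7 (125) were also close to the floor. ITGB7 shares 42.3% of its exon bases with ZNF740, and ITGB3 33.2% and ITGB6 16.7% with another gene name. Reads there were left uncounted, so these low counts are less certain. ITGAL and ITGAX are leukocyte alpha chains, ITGB7 is a leukocyte beta chain and ITGB3 pairs with alpha-v or, in platelets, with ITGA2B. The most read member was ITGB1, the beta chain shared by most integrins of connective tissue, which had 746 to 1691 CPM per library.

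**Figure D1:**
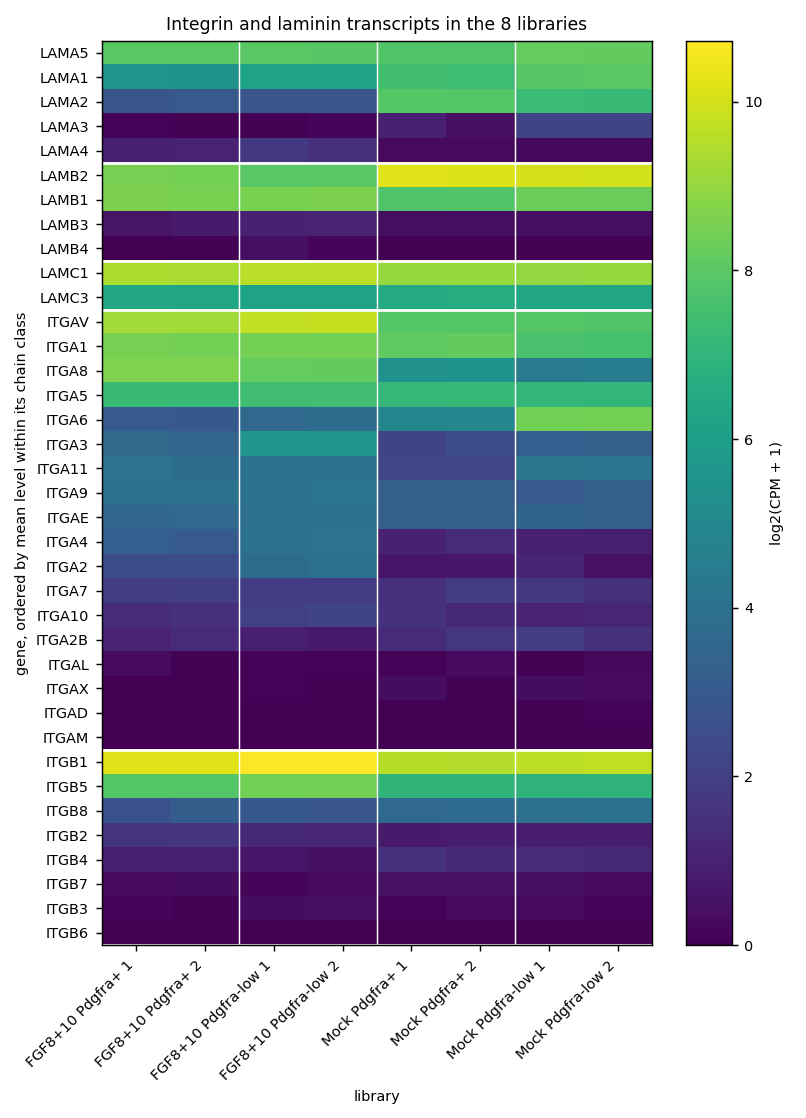
Level of the members (rows, grouped by chain class and ordered by mean level within it) in each of the 8 libraries (columns), as log2(CPM + 1). ITGB1, LAMB2, LAMC1 and ITGAV hold the highest levels, ITGA6 stands out in both Mock Pdgfra-low libraries, and LAMA2 is high in the 4 Mock libraries.

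The first question was how FGF8+10 changed these genes in each gate. In Pdgfra-positive cells 26 of the 34 tested members passed, beside 50.9% of all genes: 17 were higher and 9 lower with FGF8+10 than under Mock at an adjusted p under 0.05 (edgeR quasi-likelihood test, Benjamini-Hochberg adjustment over 22554 genes), against 25.8% of all genes higher and 25.1% lower. In Pdgfra-low cells 17 were higher and 10 lower, beside 55.7% of all genes past the threshold, 27.9% higher and 27.7% lower. With so many genes past the threshold, sizes were counted too: 8 members were at least 2-fold higher and 6 at least 2-fold lower in Pdgfra-positive cells, beside 7.29% and 9.83% of all genes (17.1% together), and 11 and 8 in Pdgfra-low cells, beside 9.45% and 11.8% (21.3% together). The median size of the log2 fold change, its sign left out, was 0.81 for the members and 0.42 for all genes in Pdgfra-positive cells, and 1.33 and 0.49 in Pdgfra-low cells. The signed median was 0.27 and 0.51 for the members, against -0.01 and -0.02 (rounded from -0.011 and -0.015) for all genes. Over both gates, 15 members were higher in both, 8 lower in both, and 5, ITGA7, ITGAL, ITGB3 and ITGB7 among them, passed in neither. LAMA5 passed in opposite directions. Labels give the replicates as biological without saying what was separate, so p-values measure the spread between these libraries. The fit shares that spread across genes, so a very small p-value does not rest on the gene's own libraries alone.

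**Figure D2:**
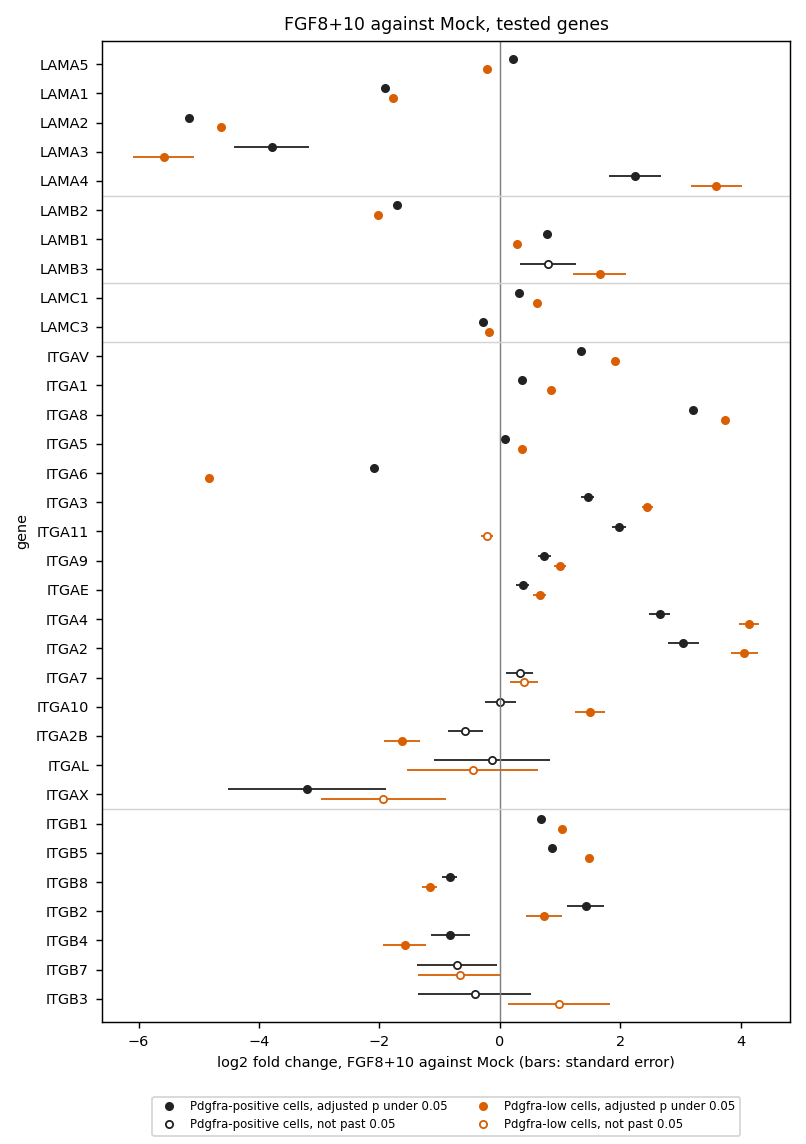
Log2 fold change of FGF8+10 against Mock (horizontal axis, bars show the standard error) for the tested members in Pdgfra-positive cells (black) and Pdgfra-low cells (orange). Filled points passed an adjusted p of 0.05. LAMA2, LAMA1, LAMB2 and ITGA6 lie left of 0 in both gates, and ITGA8, ITGA4, ITGA2, ITGAV and ITGA3 lie right of 0 in both.

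Among the laminin alpha chains, FGF8+10 went with much less LAMA2 and less LAMA1, while LAMA5 changed little. LAMA2 (chromosome 6, 128883138 to 129516566) encodes the chain best known from muscle and peripheral nerve, whose loss causes a congenital muscular dystrophy. It had 237 and 236 CPM in Mock Pdgfra-positive and 158 and 153 CPM in Mock Pdgfra-low cells, but 6.23 and 6.96 CPM in FGF8+10 Pdgfra-positive and 6.36 and 6.16 CPM in FGF8+10 Pdgfra-low cells. The Mock and FGF8+10 libraries were far apart and the FGF8+10 gates overlapped. The fall was 35.8-fold in Pdgfra-positive cells (log2 -5.16 ± 0.05 SE, edgeR adjusted p = 1.04e-50) and 24.9-fold in Pdgfra-low cells (log2 -4.64 ± 0.05, adjusted p = 3.7e-48). LAMA1 (chromosome 18, 6941742 to 7117797), the alpha chain of the earliest embryonic basement membranes, had 46.6 and 44.9 CPM in FGF8+10 Pdgfra-positive, 72.6 and 73.2 in FGF8+10 Pdgfra-low, 176 and 166 in Mock Pdgfra-positive and 247 and 253 in Mock Pdgfra-low cells. All 4 groups were apart. It fell 3.74-fold in Pdgfra-positive cells (log2 -1.90 ± 0.04, adjusted p = 6.76e-39) and 3.43-fold in Pdgfra-low cells (log2 -1.78 ± 0.03, adjusted p = 1.4e-38). The sum of cardiac muscle markers was also lower with FGF8+10. The 6 markers of that list summed to 62.3 to 69.5 CPM in Mock Pdgfra-positive and 53.2 to 54.1 CPM in Mock Pdgfra-low cells, and to 3.98 to 4.67 and 4.13 to 4.26 CPM in the same gates with FGF8+10, most of the Mock sums being TNNT2 (62 and 47.2 CPM). Of the 4 tested, 2 were lower in Pdgfra-positive and 3 in Pdgfra-low cells, beside 25.1% and 27.7% of all genes. NKX2-5 was not lower, at 2.13 and 2.54 CPM with FGF8+10 and 1.74 and 2.1 CPM under Mock, the Pdgfra-positive gate first. TNNI3 had 0 counts in all groups and MYH6 in FGF8+10 Pdgfra-low cells. Smooth muscle markers summed to 27.7 to 28.7 CPM in Pdgfra-positive and 49.1 to 51.9 CPM in Pdgfra-low cells with FGF8+10. Under Mock they summed to 29.5 to 30.7 and 34.5 to 38.9 CPM. Neural markers, mostly NES, summed to 155 to 159 and 289 to 295 CPM with FGF8+10. Under Mock the neural sums were 75.3 to 75.6 and 77.6 to 82.6 CPM. The part of cells with any of these markers in the lower LAMA2 was not tested.

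LAMA5 (chromosome 20, 62307955 to 62367312), a widely expressed alpha chain of later basement membranes, kept between 215 and 291 CPM in all 8 libraries. It was 1.16-fold higher with FGF8+10 in Pdgfra-positive cells (log2 0.21 ± 0.03, edgeR adjusted p = 4.24e-09) and 1.15-fold lower in Pdgfra-low cells (log2 -0.21 ± 0.03, adjusted p = 4.69e-09). The second of these did not pass when libraries were scaled by their totals alone (log2 -0.05, adjusted p = 0.136). LAMA3, the alpha chain of the epithelial laminin-332, was read mainly in Mock Pdgfra-low cells, at 3.6 and 3.46 CPM. It had 0.919 and 0.374 CPM in Mock Pdgfra-positive cells and only 6 and 8 counts in all in the FGF8+10 Pdgfra-positive and Pdgfra-low groups. It passed as lower in both gates (adjusted p = 1.09e-06 and 5.04e-13), with a fitted size that rests on those few counts. LAMA4, an alpha chain of blood vessel basement membranes, went the other way at a low level. It had 0.918 and 1.05 CPM in FGF8+10 Pdgfra-positive, 2.34 and 1.71 CPM in FGF8+10 Pdgfra-low and 0.164 to 0.208 CPM in the 4 Mock libraries, a rise of 4.76-fold (log2 2.25 ± 0.43, adjusted p = 2.02e-05) and 12.1-fold (log2 3.6 ± 0.42, adjusted p = 3.58e-10).

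Of the beta chains, LAMB2 fell and LAMB1 rose. LAMB2 (chromosome 3, 49121114 to 49133118), the beta chain of the nerve-muscle junction and the kidney filter, had 366 and 353 CPM in FGF8+10 Pdgfra-positive and 253 and 252 in FGF8+10 Pdgfra-low cells, against 1183 and 1158 in Mock Pdgfra-positive and 1036 and 1025 in Mock Pdgfra-low cells. It fell 3.26-fold (log2 -1.70 ± 0.02, edgeR adjusted p = 2.49e-45) and 4.08-fold (log2 -2.03 ± 0.02, adjusted p = 4.18e-48). LAMB1 (chromosome 7, 107923799 to 108003213), the beta chain of most embryonic laminins, had 380.4 to 389.9 CPM in the 4 FGF8+10 libraries, 218 and 227 in Mock Pdgfra-positive and 314 and 322 in Mock Pdgfra-low cells. No FGF8+10 library overlapped a Mock library. The rise was 1.73-fold in Pdgfra-positive cells (log2 0.79 ± 0.03, adjusted p = 2.64e-29) and 1.21-fold in Pdgfra-low cells (log2 0.28 ± 0.02, adjusted p = 2.14e-13). LAMB3, the beta chain of laminin-332, stayed at 0.314 to 1.06 CPM and passed as higher in Pdgfra-low cells (log2 1.66 ± 0.45, adjusted p = 0.00138).

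Of the gamma chains, LAMC1 rose and LAMC3 fell, both by less than 2-fold. LAMC1 (chromosome 1, 183023420 to 183145592), the common gamma chain without which no basement membrane forms in the mouse embryo, had 673 and 662 CPM in FGF8+10 Pdgfra-positive and 777 and 791 in FGF8+10 Pdgfra-low cells, against 511 to 543 CPM in the Mock libraries. It rose 1.24-fold (log2 0.31 ± 0.02, edgeR adjusted p = 2.93e-17) and 1.53-fold (log2 0.61 ± 0.02, adjusted p = 2.81e-28). LAMC3, a less common gamma chain, lay between 71.4 and 97.9 CPM and was lower by 0.27 and 0.19 on the log2 scale. The latter call did not pass with library totals (log2 -0.03, adjusted p = 0.62).

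To compare chains with each other, CPM was divided by exon length in kilobases and summed over the chains of a class. The laminin alpha sum was 21.1 and 21.0 CPM per kilobase in FGF8+10 Pdgfra-positive and 22.8 and 22.1 in FGF8+10 Pdgfra-low cells, against 35.9 and 34.6 in Mock Pdgfra-positive and 42.2 and 41.9 in Mock Pdgfra-low cells. The beta sum was also lower with FGF8+10, at 57.5 to 74.4 CPM per kilobase against 167 to 184 under Mock. The gamma sum was higher, at 87.1 to 102 against 70.0 to 75.3. With either length described here, the alpha and beta sums were lower and the gamma sum higher in all FGF8+10 libraries than in all Mock libraries. LAMA5 made up 84.7% ± 0.2 (SD, n = 2) of the alpha sum in FGF8+10 Pdgfra-positive and 77.7% in FGF8+10 Pdgfra-low cells, and 43.7% and 47.8% in the same gates under Mock. LAMA2 took 25.4% of the alpha sum in Mock Pdgfra-positive and 14% in Mock Pdgfra-low cells, but 1.19% and 1.06% with FGF8+10. LAMB1 took 28.3% and 35.9% of the beta sum with FGF8+10 and 6.56% and 10.2% under Mock, the Pdgfra-positive gate first. The SD between the 2 libraries was at most 0.657 percentage points for these shares.

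The lengths used decide some ranks in these shares. Exon length in the table joins all annotated transcripts of a gene, and LAMA2 and LAMB1 have annotated exons well beyond their main coding transcript. With the length of the longest coding transcript instead, an alternative chosen after seeing the data, LAMA5 still held 80.0% and 71.9% of the alpha sum with FGF8+10. Under Mock, LAMA2 then led in Pdgfra-positive cells with 39.7%, and LAMA1 (38.4%) and LAMA5 (37.3%) stood side by side in Pdgfra-low cells. LAMB1 became the leading beta chain with FGF8+10, at 51.3% and 59.9%, and LAMB2 stayed the leading one under Mock. The direction from Mock to FGF8+10 was the same with either length for LAMA5, LAMA1, LAMA2, LAMB1 and LAMB2.

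**Figure D3:**
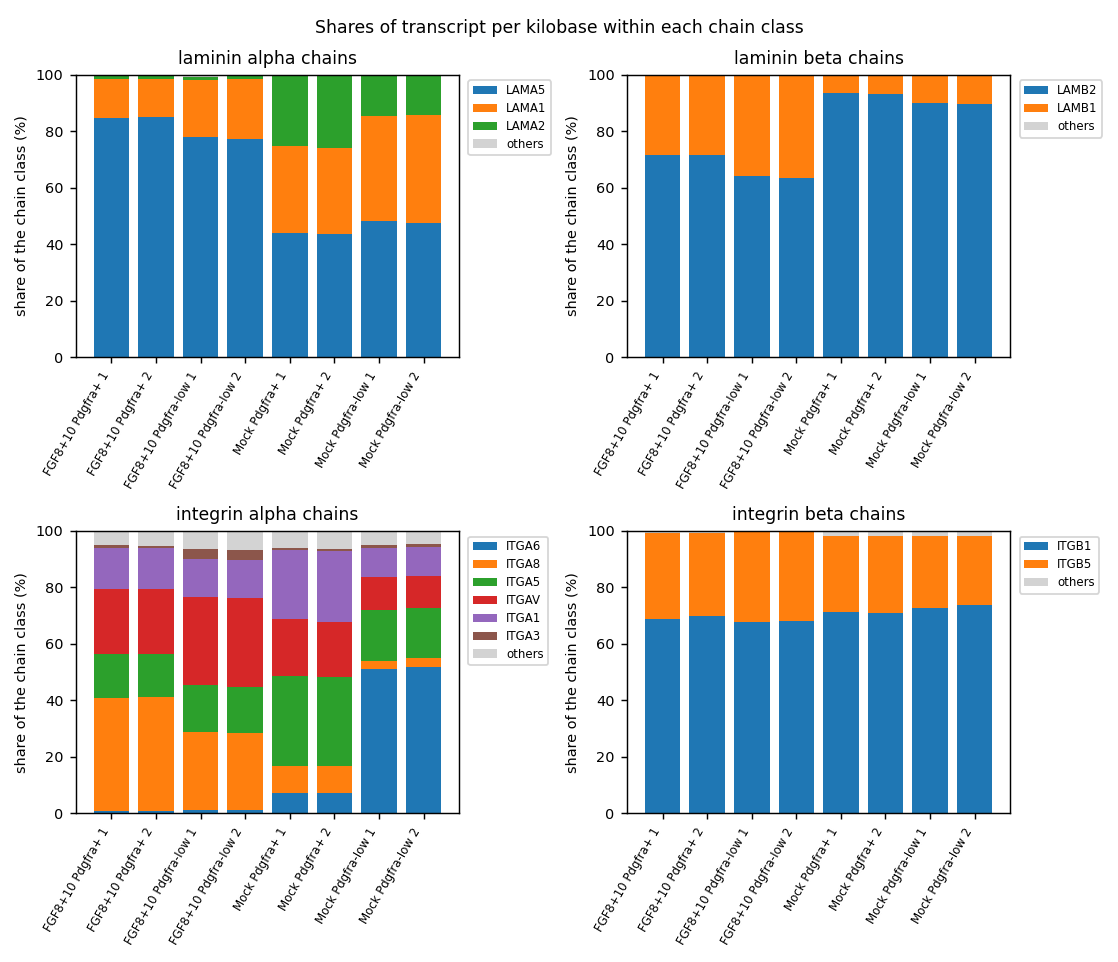
Share of each chain in the summed CPM per kilobase of exon of its class (vertical axis, %) in each of the 8 libraries (bars). The LAMA2 segment is wide only in Mock libraries, LAMB1 is wider with FGF8+10, ITGA6 fills the largest part of the alpha integrins in Mock Pdgfra-low cells, and ITGB1 with ITGB5 fills nearly all of the beta integrins.

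The laminin-binding integrin alpha chains did not move together. ITGA6 (chromosome 2, 172427354 to 172506459), the main laminin receptor of epithelia and many stem cells, had 7.02 and 6.68 CPM in FGF8+10 Pdgfra-positive, 11.9 and 12.7 in FGF8+10 Pdgfra-low, 28.6 and 29.9 in Mock Pdgfra-positive and 350.1 and 352 CPM in Mock Pdgfra-low cells. The Mock Pdgfra-low libraries stood far above the other 6. With FGF8+10 it was 4.27-fold lower in Pdgfra-positive cells (log2 -2.09 ± 0.06, edgeR adjusted p = 1.47e-32) and 28.6-fold lower in Pdgfra-low cells (log2 -4.84 ± 0.04, adjusted p = 4.61e-51). ITGA3 (chromosome 17, 50055968 to 50090481), which binds laminins with LAMA5 or LAMA3, had 12 and 10.5 CPM, 47.0 and 45.7 CPM, 3.65 and 4.5 CPM, and 8.35 and 8.62 CPM in the same order of groups. It was highest in FGF8+10 Pdgfra-low cells and rose 2.75-fold (log2 1.46 ± 0.11, adjusted p = 5.55e-16) and 5.46-fold (log2 2.45 ± 0.09, adjusted p = 1.64e-27). ITGA7, the laminin receptor of muscle fibres, had 1.72 to 2.96 CPM and passed in neither gate (log2 0.33 and 0.40, adjusted p = 0.238 and 0.134). It did pass in Pdgfra-positive cells without Mock Pdgfra-positive replicate 2 (log2 0.69, rounded from 0.695, adjusted p = 0.0416) and in Pdgfra-low cells with library totals (log2 0.56, adjusted p = 0.0327). ITGA6 shares 5.26% of its exon bases with antisense and other gene names, and reads there were left uncounted.

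Of the 4 collagen-binding alpha chains, 3 were higher in each gate, beside 25.8% of all genes in Pdgfra-positive and 27.9% in Pdgfra-low cells. ITGA1 (chromosome 5, 52787916 to 52959209), a receptor of collagen IV, had 365 and 358 CPM in FGF8+10 Pdgfra-positive, 356 and 358 in FGF8+10 Pdgfra-low, 275 and 284 in Mock Pdgfra-positive and 201 and 194 in Mock Pdgfra-low cells. It rose 1.29-fold (log2 0.37 ± 0.03, edgeR adjusted p = 4.04e-17) and 1.81-fold (log2 0.86 ± 0.03, adjusted p = 9.42e-31). ITGA2 (chromosome 5, 52989340 to 53094779), which binds fibrillar collagens, had 4.49 and 4.65 CPM in FGF8+10 Pdgfra-positive and 12.7 and 14 in FGF8+10 Pdgfra-low cells. It lay at 0.538 and 0.560 CPM in Mock Pdgfra-positive and 1.18 and 0.414 CPM in Mock Pdgfra-low cells, where the 2 libraries differed most. The rise was 8.29-fold (log2 3.05 ± 0.26, adjusted p = 3.5e-13) and 16.7-fold (log2 4.06 ± 0.22, adjusted p = 3.34e-19). The size of the latter depended on the Mock Pdgfra-low libraries: it was log2 5.01 without replicate 1 of that group and log2 3.5 without replicate 2.

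ITGA11 (chromosome 15, 68296532 to 68432163), a collagen receptor of mesenchymal cells, was low in a single group. It had 3.72 and 3.78 CPM in Mock Pdgfra-positive cells and 13.5 to 18.3 CPM in the other 6 libraries. It rose 3.94-fold with FGF8+10 in Pdgfra-positive cells (log2 1.98 ± 0.12, edgeR adjusted p = 1.26e-19), and in Pdgfra-low cells its log2 difference was -0.21 ± 0.10 (rounded from -0.215, adjusted p = 0.0526). Fitting only the 2 groups compared brought that difference past the threshold (adjusted p = 0.0293), as did leaving out either Mock Pdgfra-positive library (0.0375 and 0.039). ITGA10, a collagen receptor of cartilage cells, had 3.09 and 3.58 CPM in FGF8+10 Pdgfra-low cells and 1.12 to 1.88 CPM elsewhere. It rose 2.83-fold in Pdgfra-low cells (log2 1.5 ± 0.25, adjusted p = 1.5e-06), while in Pdgfra-positive cells the log2 difference was 0.01 ± 0.26.

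An RGD-binding chain held the largest share among alpha chains in both FGF8+10 groups and in Mock Pdgfra-positive cells. In Mock Pdgfra-low cells ITGA6 did. ITGA8 (chromosome 10, 15513954 to 15719922), the receptor of nephronectin that the kidney bud needs, had 397 and 396 CPM in FGF8+10 Pdgfra-positive and 288 and 285 in FGF8+10 Pdgfra-low cells, against 42.4 and 43.1 in Mock Pdgfra-positive and 21.3 and 21.7 in Mock Pdgfra-low cells. All 4 groups were apart. The rise was 9.27-fold (log2 3.21 ± 0.03, edgeR adjusted p = 1.14e-49) and 13.3-fold (log2 3.74 ± 0.03, adjusted p = 2.68e-51). ITGAV (chromosome 2, 186590010 to 186680901), the alpha chain of the vitronectin receptors, had 599 and 596 CPM in FGF8+10 Pdgfra-positive, 854 and 869.8 in FGF8+10 Pdgfra-low and 227 to 237 CPM in the 4 Mock libraries. It rose 2.55-fold (log2 1.35 ± 0.02, adjusted p = 2.53e-40) and 3.77-fold (log2 1.91 ± 0.02, adjusted p = 1.83e-46). ITGA5 (chromosome 12, 54395261 to 54419266), the fibronectin receptor chain, stayed between 133 and 173 CPM. Its rises were small, at log2 0.09 ± 0.03 (adjusted p = 0.013) and 0.36 ± 0.03 (adjusted p = 2.58e-14). The first of these did not pass without FGF8+10 Pdgfra-positive replicate 1 (adjusted p = 0.0901) or without Mock Pdgfra-positive replicate 1 (0.0533). ITGA2B, the platelet chain, had 0.682 to 2.88 CPM and was 3.08-fold lower in Pdgfra-low cells (log2 -1.62 ± 0.30, adjusted p = 8.25e-06).

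ITGA4 and ITGA9, which bind VCAM1, tenascin, osteopontin and parts of fibronectin, were both higher. ITGA4 (chromosome 2, 181457202 to 181538940) had 8.22 and 7.38 CPM in FGF8+10 Pdgfra-positive and 14.9 and 16.2 in FGF8+10 Pdgfra-low cells, against 0.986 and 1.47 in Mock Pdgfra-positive and 0.904 and 0.860 in Mock Pdgfra-low cells. It rose 6.3-fold (log2 2.66 ± 0.17, rounded from 2.655, edgeR adjusted p = 7.89e-18) and 17.6-fold (log2 4.14 ± 0.17, adjusted p = 2.73e-25). ITGA4 shares 26.4% of its exon bases with CERKL, so its level is less certain. ITGA9 had 14.6 to 16.3 CPM with FGF8+10 and 6.97 to 9.19 CPM under Mock, a rise of 1.67-fold and 2-fold (log2 0.74 ± 0.11 and 1.00 ± 0.11, adjusted p = 8.14e-08 and 2.98e-11). Of the leukocyte-type chains, ITGAE, which pairs with ITGB7 in tissue lymphocytes, had 8.50 to 14.9 CPM and was higher by log2 0.38 and 0.66. ITGAX passed as lower in Pdgfra-positive cells (adjusted p = 0.0379) on 2 counts against 14, and did not pass with DESeq2 (0.0542), with no filter on low counts (0.0604), with the replicate number as a block (0.0649) or without any of 6 single libraries (0.0548 to 0.632).

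Of the 7 tested beta chains, 3 were higher and 2 lower in each gate. Of all genes, 25.8% were higher and 25.1% lower in Pdgfra-positive cells, and 27.9% and 27.7% in Pdgfra-low cells. ITGB1 (chromosome 10, 32887273 to 33005792) had 1203 and 1218 CPM in FGF8+10 Pdgfra-positive and 1675 and 1691 in FGF8+10 Pdgfra-low cells, against 757 and 746 in Mock Pdgfra-positive and 809.5 and 833 in Mock Pdgfra-low cells. It rose 1.61-fold (log2 0.69 ± 0.02, edgeR adjusted p = 1.11e-31) and 2.05-fold (log2 1.03 ± 0.02, rounded from 1.035, adjusted p = 6.8e-39). ITGB5 (chromosome 3, 124761948 to 124901418), a partner of alpha-v, had 238 and 229 CPM in FGF8+10 Pdgfra-positive, 350.5 and 349 in FGF8+10 Pdgfra-low and 123 to 128 CPM in the Mock libraries. It rose 1.83-fold (log2 0.87 ± 0.03, adjusted p = 4.87e-29) and 2.8-fold (log2 1.49 ± 0.03, adjusted p = 1.38e-38). ITGB8, the alpha-v partner that releases active TGF-beta, fell 1.79-fold and 2.24-fold, from 11.6 to 15.1 CPM under Mock to 5.44 to 7.95 CPM with FGF8+10 (log2 -0.84 ± 0.12 and -1.16 ± 0.12, adjusted p = 1.62e-07 and 2.9e-11). The 2 beta chains ITGB2 and ITGB4 were near 1 CPM.

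ITGB2, the leukocyte beta chain, had 2.03 and 2.13 CPM in FGF8+10 Pdgfra-positive and 1.34 and 1.25 in FGF8+10 Pdgfra-low cells, against 0.717 to 0.830 CPM in the Mock libraries. It was higher by log2 1.42 ± 0.30 (edgeR adjusted p = 8.27e-05) and 0.74 ± 0.30 (rounded from 0.735, adjusted p = 0.0364). The latter did not pass with DESeq2 (0.0611), with no filter (0.0811), with only the 2 groups fitted (0.0587) or without any of 6 libraries (0.0514 to 0.122). ITGB4, the epithelial partner of ITGA6, had 0.375 to 0.927 CPM with FGF8+10 and 1.27 to 1.93 CPM under Mock. It was lower by log2 -0.82 ± 0.33 (adjusted p = 0.0325) in Pdgfra-positive and -1.58 ± 0.35 (adjusted p = 0.000162) in Pdgfra-low cells. The first did not pass with library totals (0.0921), DESeq2 (0.0641), no filter (0.0638), or without FGF8+10 Pdgfra-positive replicate 1 (0.136) or 2 (0.0973) or Mock Pdgfra-positive replicate 1 (0.368). Of 10 blood and platelet markers, HBE1, PF4 and GP9 had 0 counts in every group, and the markers summed to 4.26 to 6.45 CPM in all groups except FGF8+10 Pdgfra-low, where they summed to 17.7 to 18.9 CPM. Most of that sum was CD34, which endothelium also expresses, at 14.7 CPM. PTPRC and SPI1, which define leukocytes, had at most 0.0795 and 0.164 CPM in any group. With FGF8+10, 1 of 5 tested markers was higher in Pdgfra-low cells, beside 27.9% of all genes. ITGA2B is itself on the list. The part of such cells in ITGB2 and ITGAX was not tested.

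Per kilobase, the integrin alpha sum was 135 and 134 CPM in FGF8+10 Pdgfra-positive and 142 and 143 in FGF8+10 Pdgfra-low cells, against 60.5 and 61.4 in Mock Pdgfra-positive and 103 and 102 in Mock Pdgfra-low cells. The beta sum was 119.9 and 119.7, 169.6 and 170.5, 72.8 and 72.1, and 76.4 and 77.5 CPM per kilobase in that order. Both sums were higher with FGF8+10 in each gate, by either length. Within the alpha chains, ITGA8 took 40.4% in FGF8+10 Pdgfra-positive cells, ITGAV 31.3% in FGF8+10 Pdgfra-low cells, ITGA5 31.7% in Mock Pdgfra-positive cells and ITGA6 51.5% in Mock Pdgfra-low cells, each the largest share of its group by exon length. By coding transcript length, ITGAV led in FGF8+10 Pdgfra-positive cells (37.8%, with ITGA8 at 26.1%) and in Mock Pdgfra-positive cells (30.4%, with ITGA5 at 29.3%), and it led in FGF8+10 Pdgfra-low cells with 46.6%. ITGA6 led in Mock Pdgfra-low cells with either length, at 40.2% by the second. Among beta chains ITGB1 took 68.0% to 73.3% and ITGB5 24.9% to 31.6% of the sum, and these 2 chains kept the same order in all 4 groups.

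**Figure D4:**
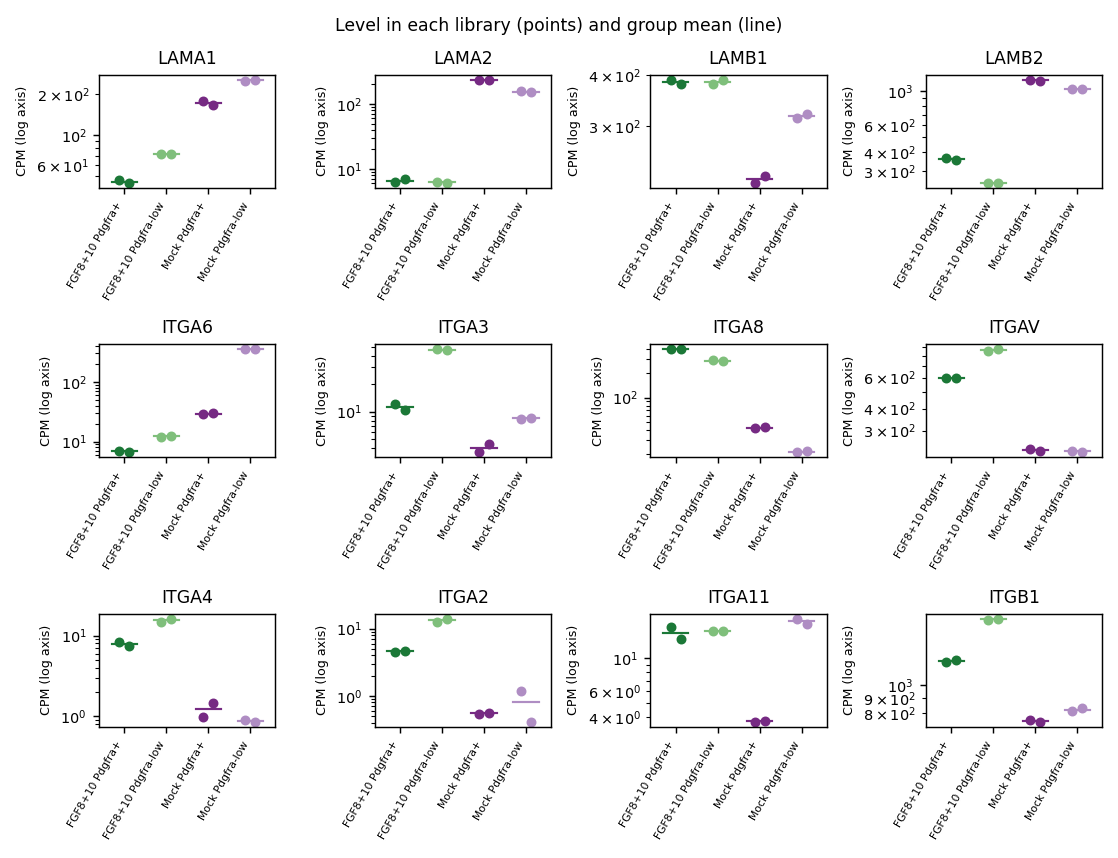
CPM of 12 members (panels, log axis) in each library (points) with the group mean (line), by group on the horizontal axis. The FGF8+10 gates overlap for LAMA2, LAMB1 and ITGA11, and the Mock gates overlap for ITGA2, whose Mock Pdgfra-low replicates lie furthest apart. In the other panels neighbouring groups do not overlap. ITGA11 is low only in Mock Pdgfra-positive cells.

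The second question was how the gates differed. With FGF8+10, 5 members were higher and 13 lower in Pdgfra-positive than in Pdgfra-low cells (edgeR quasi-likelihood test, adjusted p under 0.05), beside 19.6% and 21.7% of all genes (41.4% together). Of these, 0 were at least 2-fold higher and 4 at least 2-fold lower, beside 3.13% and 3.26% of all genes (6.38% together). The 4 were ITGA3 (log2 -2.04 ± 0.09, adjusted p = 1.73e-24), ITGA2 (-1.55 ± 0.18, 1.47e-09), ITGA10 (-1.08 ± 0.24, 0.000252) and LAMA4 (-1.04 ± 0.34, 0.0105). LAMA4 did not pass without FGF8+10 Pdgfra-positive replicate 1 (0.0964) or without FGF8+10 Pdgfra-low replicate 1 (0.172). Higher in the Pdgfra-positive gate were LAMB2 (log2 0.51 ± 0.02), ITGA8 (0.47 ± 0.03), LAMC3 (0.16 ± 0.04), ITGB2 (0.69 ± 0.28) and ITGB4 (0.97 ± 0.36). The count of 5 fell to 3 without FGF8+10 Pdgfra-positive replicate 1 or 2 or without FGF8+10 Pdgfra-low replicate 2. Leaving out the first of these lost LAMC3, ITGB2 and ITGB4 and brought in ITGA2B (adjusted p = 0.0689, 0.125, 0.0649 and 0.0331), and the other fits each lost ITGB2 and ITGB4 (0.0984 to 0.221). ITGB2 was also lost without FGF8+10 Pdgfra-low replicate 1 (0.103), with DESeq2 (0.0857) and with no filter (0.096).

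Markers of other cell types also differed between these gates. Of 10 endothelial markers, 9 were lower in Pdgfra-positive than in Pdgfra-low cells with FGF8+10, beside 21.7% of all genes. All 10 were higher with FGF8+10 than under Mock in Pdgfra-low cells, beside 27.9% of all genes. Their sum was 2710 CPM in both FGF8+10 Pdgfra-low libraries and 2210 to 2220 in FGF8+10 Pdgfra-positive cells. Under Mock it was 1390 to 1400 in Pdgfra-positive and 1410 to 1420 in Pdgfra-low cells. Most of the sum came from KDR, which lateral mesoderm also expresses, and from TEK. PECAM1, CDH5 and ESAM, which define endothelium, had 18.5, 19.8 and 16.3 CPM in FGF8+10 Pdgfra-low cells. In the other groups they had 0.676 to 2.60 CPM. None of the 10 was at 0 in any group, but CLDN5 had at most 0.865 CPM, and 0.0591 CPM in FGF8+10 Pdgfra-positive cells. Of 10 epithelial markers, 7 were tested and 5 of these were lower in Pdgfra-positive than in Pdgfra-low cells with FGF8+10, KRT8 and KRT18 among them, while EPCAM and CDH1 stayed at or under 1.2 CPM in all groups. Their part in the higher ITGA2, ITGA3, ITGA4, ITGA10 and LAMA4 of the FGF8+10 Pdgfra-low gate was not tested.

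Under Mock, 7 members were higher and 9 lower in Pdgfra-positive than in Pdgfra-low cells, beside 12.4% and 13.4% of all genes (25.8% together). Of these, 0 were at least 2-fold higher and 4 at least 2-fold lower, beside 1.63% and 2.25% of all genes (3.88% together). The 4 were ITGA6 (12-fold, log2 -3.59 ± 0.04, edgeR adjusted p = 5.27e-46), LAMA3 (-2.46 ± 0.38, 1.37e-06, and -3.23 without Mock Pdgfra-positive replicate 1), ITGA11 (-2.23 ± 0.11, 9.69e-21) and ITGA3 (-1.05 ± 0.11, 1.73e-10). ITGA8 was 1.99-fold higher in Pdgfra-positive cells (log2 0.99 ± 0.04, adjusted p = 4.49e-25), followed by LAMA2 (0.60 ± 0.03) and ITGA1 (0.50 ± 0.03). The calls of LAMC1, ITGA5 and ITGB8 in this comparison, all under 0.31 on the log2 scale, were lost in several alternatives. Under Mock the summed epithelial markers were 1130 to 1140 CPM in Pdgfra-low and 666 to 667 CPM in Pdgfra-positive cells, with 4 of 7 tested lower in the latter, and the mesothelial marker UPK3B had 14 CPM in Mock Pdgfra-low cells and at most 0.665 CPM elsewhere. The 6 mesothelial and epicardial markers summed to 197 to 203 and 149 to 156 CPM in the same gates, with 3 lower and 1 higher in Pdgfra-positive cells. TCF21 had 58 CPM in Mock Pdgfra-low and 66.9 CPM in Mock Pdgfra-positive cells. At least 1 CPM was reached in Mock Pdgfra-low cells by 4 of the 6 mesothelial and epicardial and 4 of the 10 epithelial markers. In Mock Pdgfra-positive cells 3 of each list did. No marker of these lists was at 0 counts in the Mock groups, but the group means of WT1, TP63, KRT5 and GRHL2 lay under the floor of detection. The part of such cells in ITGA6, LAMA3 and ITGA11 was not tested.

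The third question was whether the FGF8+10 effect differed between the gates, tested as the effect in Pdgfra-positive cells minus that in Pdgfra-low cells. This difference was positive for 5 members and negative for 13, beside 12% and 14% of all genes (26% together) at an edgeR adjusted p under 0.05. It was at least 2-fold for 2 members upward and 3 downward, beside 2.08% and 2.37% of all genes (4.44% together). It was largest for ITGA6 (2.75 ± 0.08, rounded from 2.745, adjusted p = 4.09e-30), whose fall was deeper in Pdgfra-low cells, and ITGA11 (2.19 ± 0.15, adjusted p = 2.85e-16). Under Mock the levels of these genes differed 12-fold and 4.69-fold between the gates. ITGA10 (-1.49 ± 0.36, 0.00121), ITGA4 (-1.48 ± 0.26, 1.55e-05) and ITGA2 (-1.01 ± 0.38, 0.0477) rose more in Pdgfra-low cells. The ITGA2 difference did not pass with library totals (0.0511), with DESeq2 (0.278) or without any of 7 single libraries (0.0668 to 0.417). It was -0.44 without Mock Pdgfra-low replicate 2 and -1.95 (adjusted p = 0.000154) without replicate 1 of that group. ITGAV, ITGB1 and ITGB5 also rose more in Pdgfra-low cells, by 0.56, 0.35 and 0.62 on the log2 scale. Of the endothelial markers 9 of 10 had a lower difference as well, and their part in it was not tested.

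Genes that work with integrins and laminins were taken from 4 fixed lists. Over all genes 25.8% were higher and 25.1% lower with FGF8+10 in Pdgfra-positive cells, and 27.9% and 27.7% in Pdgfra-low cells. Of 24 tested integrin activators and adhesion adaptors, 12 were higher and 6 lower in Pdgfra-positive cells (median log2 0.12). In Pdgfra-low cells 15 were higher and 5 lower (median 0.26), against medians of -0.011 and -0.015 over all genes in the 2 gates. Among them FHL2, a LIM-domain protein that binds integrin tails, rose from 1.44 to 7.18 CPM in Pdgfra-positive and from 1.11 to 8.19 CPM in Pdgfra-low cells. ACTN1, which ties integrins to actin, rose 2.03-fold and 3.05-fold. The talin TLN2 fell by 1.31 and 1.73 and the tensin TNS1 by 1.52 and 2.21 on the log2 scale. Of 20 basement membrane partners and other laminin receptors, 5 were higher and 13 lower in Pdgfra-positive cells and 4 and 12 in Pdgfra-low cells, with medians of -0.57 and -0.53. COL15A1, a basement membrane collagen, fell from 351 to 2.98 CPM in Pdgfra-positive cells and from 561 to 12.2 CPM in Pdgfra-low cells. FREM2 fell 3.96-fold and 8.55-fold, whereas FRAS1, which forms a complex with FREM2 under the ectoderm, rose from 29.1 to 172 CPM (5.9-fold) and from 89.0 to 167 CPM (1.88-fold). COL4A4 rose from 1.10 to 7.37 and from 0.734 to 7.26 CPM.

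Of 19 tested integrin ligands other than laminins, 5 were higher (all genes 25.8%) and 11 lower (25.1%) in Pdgfra-positive cells. In Pdgfra-low cells 8 of the ligands were higher (all genes 27.9%) and 9 lower (27.7%). The medians of the ligands were -0.32 and 0.06. The largest rises were those of TNC, a ligand of alpha-9 and alpha-v integrins, which had 11.2 and 330 CPM (29.4-fold) in Pdgfra-positive and 5.03 and 342 CPM (68-fold) in Pdgfra-low cells, Mock first, and of TGFBI (27.7-fold and 48.4-fold). Nephronectin (NPNT), the ligand of ITGA8, fell from 12.1 to 0.524 CPM and from 132.7 to 5.26 CPM, while ITGA8 rose in the same gates. POSTN fell 6.72-fold and 14.5-fold. VCAM1, the counter-receptor of ITGA4 and chosen after its values were seen, was lower by log2 -2.25 (rounded from -2.255) and -4.26 where ITGA4 was higher. In Pdgfra-low cells this was a larger fall than that of POSTN (log2 -3.85). Still, VCAM1 was not named by the rule for these lists, which asks for a passed threshold and at least 5 CPM in 1 group. Its levels are not given here, so these sizes may rest on few counts. Of the 6 latent TGF-beta partners of alpha-v integrins, 2 were higher and 4 lower in Pdgfra-positive cells and 1 and 5 in Pdgfra-low cells. The shares of all genes are those given for the ligands. LTBP1 rose by log2 0.42 (rounded from 0.425) in Pdgfra-positive cells. In Pdgfra-low cells no gene of this list with at least 5 CPM in 1 group passed as higher. TGFB3 fell by 0.66 and 1.35, and LRRC32 fell by 1.25 and 0.80. All calls are from the edgeR fit over all genes.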

How the data were processed

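RNA was sequenced in 8 libraries of sorted H1-derived cells, 2 per group. The authors deposited raw counts per gene name. The submitters' processing notes name HISAT2 2.1.0 as aligner and GRCh38 as genome, and reads were counted with featureCounts 2.0.3 on GENCODE release 42, per the file headers. The recorded command treats reads as paired but counts both mates, sets no strand, and drops reads that fall on several genes or places. Of the 38 members, 23 share exon bases with another gene name and may lose such reads. Among them are ITGA1 (13.2% of its exon bases) and LAMA1 (11.1%). Read trimming is not given in the sources used here. No line lacks a gene name.

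The tests used edgeR 4.0.16 under R 4.3.3: filterByExpr, TMM, and a robust quasi-likelihood fit of the 4 group means to all libraries, with 4 residual degrees of freedom. Of 39416 genes with counts, 22554 were tested in 5 two-sided contrasts, each adjusted over all tested genes (Benjamini-Hochberg, 0.05). The standard error is the log2 fold change divided by the square root of F. TMM factors were 1.055 to 1.065 with FGF8+10 and 0.9362 to 0.9517 under Mock. The edgeR coefficient of variation between replicates, common to all genes, was 4.06%, and its median over single genes was 8.58%. Replicates correlated across genes at 0.98584 to 0.9901 on the log2 CPM scale. Precision is limited by 2 libraries per group, and the floors allow for counting error alone, because without molecular identifiers PCR copies count as molecules. On simulated counts for the first contrast over 21522 genes, 62% of 1.5-fold and 100% of 2-, 4- and 8-fold changes were recovered, with 0.0281% false calls. Only 50 genes per fold were changed, all of them well read, with the same spread for all genes and the rest unchanged. The recovery therefore does not cover members with few counts.

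Gene positions are those of the count table and shared exons were taken from them. Coding transcript lengths came from GENCODE release 29. The 38 members, the gene lists and the tests were chosen with earlier results of these data known. The rule for naming was that every member is named (1 tested member, kept in the counts over members, is not reported here), members past 0.05 and 2-fold are described, and of each pathway list the 2 largest rises and falls past 0.05 with at least 5 CPM in 1 group. Alternatives were DESeq2 1.42.0 (its size factors, its test), library totals, no filter, a replicate block, only the 2 groups compared, halved counts and leaving out each library.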

Additional observations from a re-analysis of the deposited data

Results flagged for a closer look

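The FGF8+10 effect differed between the gates for 18 members, by the edgeR test of the difference itself (effect in Pdgfra-positive minus effect in Pdgfra-low cells, log2, adjusted p under 0.05 over all genes, where 26% of genes passed). Groups of 2 libraries are too small for a check of single libraries that stand apart. The positive differences were 2.745 for ITGA6, 2.192 for ITGA11, 0.514 for LAMB1, 0.42 for LAMA5 and 0.325 for LAMB2. LAMB1 rose more in Pdgfra-positive cells, LAMA5 rose there and fell in the other gate, and LAMB2 fell less there. The negative differences among laminins were -0.127 for LAMA1 (adjusted p = 0.0469), -0.299 for LAMC1 and -0.525 for LAMA2. Among integrin alpha chains they were -0.272 for ITGA5, -0.487 for ITGA1, -0.524 for ITGA8, -0.561 for ITGAV, -0.991 for ITGA3, -1.009 for ITGA2, -1.481 for ITGA4 and -1.491 for ITGA10. Among beta chains they were -0.347 for ITGB1 and -0.616 for ITGB5. All 10 of these integrin chains had the larger rise in Pdgfra-low cells. The LAMA1 difference did not pass with library totals (0.0761), DESeq2 (0.0611), no filter (0.196) or without any of 7 single libraries (0.0579 to 0.331).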

How the results depend on the processing

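The counts of members past the threshold stayed within 1.5 times in every alternative except 1: members higher in Pdgfra-positive than in Pdgfra-low cells with FGF8+10, whose count of 5 became 3 to 5 when a library was left out. For FGF8+10 against Mock, leaving out libraries gave 16 to 18 higher and 7 to 9 lower in Pdgfra-positive cells, and 16 to 17 and 10 to 11 in Pdgfra-low cells. Where this leaves an arm with 1 library, that library is assumed to vary like the other groups. Of 105 member calls, 11 were lost in at least 1 alternative that kept all libraries and 14 in at least 1 fit without a library. Library totals alone moved the median of all genes by 0.161 in Pdgfra-positive and 0.146 in Pdgfra-low cells on the log2 scale. Deviations of same-numbered libraries from their group means correlated at -0.0122 to 0.0188 across the tested genes. This cannot show whether replicate numbers pair the samples, since each group gives a single difference and genes with few counts weigh equally. With the replicate number as a block, 2 of 165 member results changed their call, ITGAX in Pdgfra-positive cells (adjusted p = 0.0649) and ITGB2 between the gates with FGF8+10 (0.688, adjusted p = 0.0524). With all libraries kept, signs changed for 4 values, none past the threshold: ITGAL for FGF8+10 against Mock in Pdgfra-positive cells with library totals (0.036), LAMB1 between the gates with FGF8+10 without a filter (0.002), ITGB3 between the gates under Mock with the block (0.012) and ITGB2 there with halved counts (0.005). Leaving out libraries changed the sign of 25 member results, none of them past the threshold with all libraries, and their log2 values are given as ranges. Of these, 3 range ends passed: LAMA3 between the gates with FGF8+10 without FGF8+10 Pdgfra-positive replicate 1 (-5.055, adjusted p = 0.0408), LAMA3 in the difference of the effects without replicate 2 of that group (2.776, 0.0345), and ITGA2 between the gates under Mock without Mock Pdgfra-low replicate 2 (-1.107, 0.00483). Other calls gained by leaving out a library, besides those given with the results, were ITGA2B for FGF8+10 against Mock in Pdgfra-positive cells (-0.831, 0.0355), ITGA4 between the gates under Mock (0.738, 0.0332), and, in the difference of the effects, ITGB8 (0.589, 0.00902) and ITGA2B (1.291 to 1.386, 0.0232 to 0.03). For FGF8+10 against Mock in Pdgfra-positive cells they ran for ITGA10 from -0.247 to 0.321, ITGAL from -1.483 to 0.783 and ITGB3 from -1.189 to 0.611. In Pdgfra-low cells they ran for ITGAL from -1.182 to 1.077. Between the gates with FGF8+10 they ran for ITGAL from -0.275 to 1.781, LAMA2 from -0.003 to 0.156, LAMA3 from -5.055 to 0.307 and LAMB1 from -0.018 to 0.018. In the same comparison they ran for ITGA11 from -0.169 to 0.086, ITGB8 from -0.278 to 0.269, ITGB7 from -0.112 to 1.048 and ITGA9 from -0.132 to 0.001. Between the gates under Mock they ran for ITGB2 from -0.116 to 0.098, ITGB3 from -1.121 to 1.037, ITGB4 from -0.122 to 0.48, ITGA7 from -0.176 to 0.471 and ITGAL from -0.146 to 2.296. In the same comparison they ran for ITGAX from -2.517 to 0.115, ITGA2 from -1.107 to 0.403 and ITGAE from -0.216 to 0.018. For the difference of the effects they ran for LAMA3 from -2.586 to 2.776, ITGAL from -1.205 to 1.239, ITGB7 from -0.482 to 0.677 and ITGAX from -4.186 to 0.571. In the same comparison they ran for ITGA7 from -0.351 to 0.295. The cause of these changes was not tested. Low counts limit ITGAL, ITGAX, ITGB3, ITGB7, LAMA3, LAMA4 and LAMB3.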
